A study of Mus musculus with 6 samples.

Results

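The members described here are 9 genes of transcription factors and chromatin regulators, listed together as core factors of CD4+CD8+ double-positive (DP) thymocytes. They are Tcf7, Lef1, Bcl11b, Gata3, Runx1, Runx3, Zbtb7b, Satb1 and Tox. They were taken from the deposited gene table by their symbols, and 9 of its 22322 genes matched. The rule used no measured value, but the members were chosen with earlier results of these data known. In these data Runx3 was low and Zbtb7b had no count. Read counts per gene were compared between 3 control and 3 cKO libraries of DP thymocytes sorted by flow cytometry from the thymus of untreated C57BL/6 mice of 4 to 7 weeks and both sexes. Control mice were Paxbp1fl/fl littermates, named WT in the labels, and cKO mice were Paxbp1fl/fl Lckcre. Both groups therefore carried Paxbp1 alleles with an exon between loxP sites, and only the cKO mice carried the Cre transgene, whose Lck promoter is active in developing T cells. No group with Cre and intact Paxbp1 alleles was analysed here, so the transgene and the deletion cannot be told apart. The sources do not say whether a library came from 1 mouse, and p-values measure only the spread between these libraries, which may be technical.

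DP thymocytes arise from CD4-CD8- double-negative (DN) cells through an immature single-positive (ISP) stage, rearrange the T cell receptor α chain and, after positive selection, become CD4 or CD8 single-positive (SP) cells. TCF-1 (the product of Tcf7) and LEF-1 are related high-mobility-group (HMG) box factors that can bind β-catenin or TLE corepressors and that serve T-lineage specification and DP survival. BCL11B secures T-lineage commitment, GATA3 is needed from the earliest T-cell stages and for CD4 cells, and RUNX1 and RUNX3 bind DNA with CBFβ, RUNX3 being linked to the CD8 lineage. ThPOK (the product of Zbtb7b) directs the CD4 lineage, SATB1 is an abundant organiser of thymocyte chromatin, and TOX is an HMG-box protein required for CD4 T-cell development.

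Of the 9 members, 8 passed the filter on low counts and were tested, and Zbtb7b had no count in any library. Bcl11b and Satb1 were downregulated in cKO DP thymocytes. Both differences were below the 2-fold threshold of the study's methods. Tox, Gata3, Tcf7, Runx1 and Lef1 had lower values in all cKO libraries than in any control library but did not pass the test after adjustment. Runx3 had overlapping values. Of 11488 tested genes, 17.3% had all cKO libraries below all control libraries. In RNA from sorted populations, fewer cells with a transcript and less of it per cell cannot be told apart.

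The libraries held 18963775 to 26252248 counts, and the level of a gene is given as CPM, its count scaled to a common library total, with totals corrected by the trimmed mean of M-values (TMM). Mitochondrial genes took 1.45% to 3.19% of the counts, the highest in cKO 1, and ribosomal protein genes took 1.36% to 1.71% in control and 1.97% to 2.12% in cKO libraries. Paxbp1 itself stood at 40.1, 16.3 and 15.5 CPM in the control libraries and at 38.8, 47.1 and 49.6 CPM in the cKO libraries (log2 fold change 0.92, edgeR quasi-likelihood test with Benjamini-Hochberg adjusted p = 0.0977). Without control 1 the value was 1.501 with an adjusted p of 0.0017. A count over the whole gene does not measure the deleted exon, so it does not check the genotypes, and libraries are called control and cKO here as labelled. The paper itself reported, by qPCR and reverse transcription PCR of sorted cells, complete deletion by the ISP stage. It also reported efficient loss of the protein by western blot in sorted DN and DP thymocytes. Of 14 genes of the DP stage, 14 were detected, and their summed level was 16800 to 18860 CPM in control and 12530 to 14350 CPM in cKO libraries.

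Stretches of 250 bases before annotated transcript starts were read for the members on GRCm38 (RefSeq), and 8 of 9 members had at least 1 such window, 19 in all. The words searched, on both strands, were TGTGGT (a core bound by RUNX factors), CTTTGA (a core bound by TCF-1 and LEF-1), CTTTGT (another core of that pair) and AGATAA, which GATA factors bind. CTTTGT ends in the letters with which the RUNX core begins, so that a single stretch can hold both, which was not the case in a member. The words were chosen because the members include the factors known to bind them. Shown are a window of Satb1, which passed the test as Bcl11b did, those of Runx3 and Lef1 that held more than 1 match, and a 30-base stretch of Bcl11b around its only match. Capitals mark the matches, and each sequence is written 5′ to 3′ on the strand of its gene. A word on the opposite strand reads ACCACA for the RUNX core, TCAAAG for the first TCF/LEF core and ACAAAG for the other.
Satb1, chr17:51833291-51833540, minus strand: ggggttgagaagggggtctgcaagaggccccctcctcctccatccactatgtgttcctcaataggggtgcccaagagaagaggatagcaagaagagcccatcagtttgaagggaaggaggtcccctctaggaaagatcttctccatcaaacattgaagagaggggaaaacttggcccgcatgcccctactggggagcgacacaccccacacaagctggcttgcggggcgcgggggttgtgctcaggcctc
Runx3, chr4:135120395-135120644, plus strand: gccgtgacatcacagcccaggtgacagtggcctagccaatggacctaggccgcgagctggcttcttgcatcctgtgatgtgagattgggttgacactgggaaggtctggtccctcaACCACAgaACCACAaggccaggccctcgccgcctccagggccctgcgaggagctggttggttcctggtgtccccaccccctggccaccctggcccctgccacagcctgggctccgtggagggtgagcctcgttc
Lef1, chr3:131156044-131156293, plus strand: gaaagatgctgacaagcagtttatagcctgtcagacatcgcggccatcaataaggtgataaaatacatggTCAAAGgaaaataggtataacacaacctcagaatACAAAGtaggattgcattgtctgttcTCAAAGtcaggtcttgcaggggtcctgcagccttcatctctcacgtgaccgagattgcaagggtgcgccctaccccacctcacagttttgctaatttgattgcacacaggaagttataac
Bcl11b, chr12:108003486-108003515, minus strand: agaggccaagcaCTTTGAagaagtgtgaga

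The Runx3 window held the RUNX core 2 times, beginning 134 and 126 bases before the start, on the opposite strand. The Lef1 window, at the innermost of that gene's starts, held CTTTGA at 180 and 120 bases and CTTTGT at 146 bases before the start, again on the opposite strand. The Bcl11b match began 89 bases before a start, inside an annotated GENCODE exon of a Bcl11b transcript that starts further upstream. The Satb1 window shown held none of the words, while 2 overlapping windows at inner Satb1 starts shared 1 match to CTTTGT. Over the 19 member windows, 2 held the RUNX core, against 14.0% of 32851 windows of the same length, and 4 held either TCF/LEF core, against 27.6%. AGATAA was in 0 of 19, against 9.99% of all windows. A match is a string of letters and was not tied to binding, and these data hold no measure of it.

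Bcl11b (ENSMUSG00000048251, chr12:107910403-108003602, minus strand, GRCm38, GENCODE M21) encodes the zinc-finger factor that secures T-lineage commitment and differed most among the tested members in size relative to its error. Its level was 496, 635 and 544 CPM in control 1, 2 and 3 and 312, 338 and 283 CPM in cKO 1, 2 and 3. The lowest control library lay well above the highest cKO library. The means were 558.5 ± 70.7 CPM (SD, n = 3) in control and 311 ± 27.6 CPM (n = 3) in cKO. Bcl11b was downregulated, with a difference of -0.84 on the log2 scale (SE 0.13, 95% interval -1.13 to -0.56, 44.3% lower, edgeR quasi-likelihood test with Benjamini-Hochberg adjusted p = 0.0061). Without cKO 3 the log2 fold change was -0.78 and the adjusted p 0.0508, just above the threshold of 0.05. The same omission left 120 genes called in the whole table, against 1191 with all libraries.

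Satb1 (ENSMUSG00000023927, chr17:51736187-51833290, minus strand), the chromatin organiser, stood at 4884, 4872 and 4190 CPM in the control libraries and at 2770, 3251 and 2720 CPM in the cKO libraries. All 3 cKO values were below all 3 control values, with control 3 the lowest control and cKO 2 the highest cKO library. Satb1 was downregulated with a log2 fold change of -0.67 (SE 0.11, 95% interval -0.92 to -0.43, 37.3% lower, edgeR adjusted p = 0.0082). Without cKO 3 the log2 fold change was -0.63 and the adjusted p 0.0570. Among the members, Bcl11b and Satb1 were the 2 called lower and 0 were called higher, against a background of 5.89% of 11488 tested genes called lower and 4.47% called higher. Among the 2589 tested genes with a mean of at least 100 CPM, where 7 of the 8 tested members lay, 9.97% were called lower.

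Tcf7 (ENSMUSG00000000782, chr11:52252371-52283014, minus strand) and Lef1 (ENSMUSG00000027985, chr3:131110471-131224356, plus strand) form the TCF/LEF pair. Tcf7 was at 2937, 3336 and 3134 CPM in control and 2443, 2820 and 2551 CPM in cKO libraries. The nearest values were those of control 1 and cKO 2, and the groups did not overlap. The difference of -0.27 on the log2 scale (SE 0.10, 95% interval -0.50 to -0.04) did not pass the test (edgeR adjusted p = 0.122). Without control 1 it was -0.32 with an adjusted p of 0.0338. Fitted with the replicate number as a block it was -0.27 with an adjusted p of 0.0446.

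Lef1 stood at 431, 462 and 446 CPM in control and at 377, 353 and 399.5 CPM in cKO libraries. The groups were apart, and the control libraries of this gene varied least of all members, with a coefficient of variation of 3.43%. The log2 fold change was -0.25 (SE 0.10, 95% interval -0.48 to -0.01, edgeR adjusted p = 0.156). The ratio of Tcf7 to Lef1 counts, which needs no scaling between libraries, was 6.81, 7.22 and 7.03 in control and 6.48, 7.99 and 6.38 in cKO libraries. The cKO ratios lay on both sides of the control ratios, and their mean log2 difference was -0.02 (exact two-sided permutation test over 20 assignments, p = 1.0, smallest possible 0.1), with values of 0.03 without cKO 1 and 0.04 without cKO 3.

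**Figure D1:**
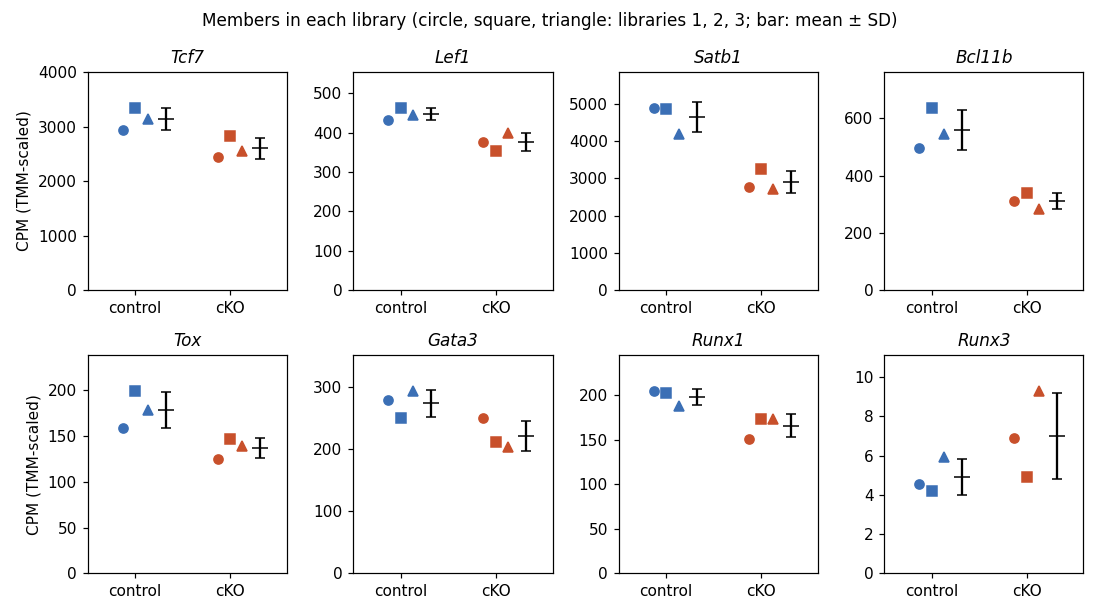
TMM-scaled CPM (vertical axes from 0, linear) of the 8 tested members in each library, with circles, squares and triangles for libraries 1, 2 and 3 of the control (blue) and cKO (red) groups and bars for the mean ± SD of 3 libraries. All 3 cKO points lie below all 3 control points in 7 panels, by the least for Gata3 (249.6 against 250.0 CPM), and the Runx3 points overlap. Of 11488 tested genes, 17.3% were apart in the same direction.

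Tox (ENSMUSG00000041272, chr4:6686353-6991557, minus strand), the HMG-box factor of the CD4 lineage, was at 159, 198 and 178.5 CPM in control and at 125, 147 and 139 CPM in cKO libraries. The groups were apart, control 1 and cKO 2 being nearest to each other. The log2 fold change was -0.39 (SE 0.12, 95% interval -0.66 to -0.11) and did not pass the test with all libraries (edgeR adjusted p = 0.0745). Without control 1 it was -0.47 with an adjusted p of 0.0191, and DESeq2 gave -0.37 with an adjusted p of 0.0462.

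Gata3 (ENSMUSG00000015619, chr2:9857078-9890034, minus strand) stood at 279, 250.0 and 293 CPM in control and at 249.6, 211 and 204 CPM in cKO libraries. Control 2 and cKO 1 had nearly the same level, so that the groups were apart by 1 narrow gap. The difference of -0.31 on the log2 scale (SE 0.12, 95% interval -0.58 to -0.04) did not pass the test (edgeR adjusted p = 0.133), nor did it under any of the 13 other fits, in which the adjusted p lay between 0.110 and 0.372.

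Runx1 (ENSMUSG00000022952, chr16:92601466-92826149, minus strand), the RUNX factor of early and DP thymocytes, was at 204, 203 and 188 CPM in control and at 151, 173.5 and 173.1 CPM in cKO libraries. The groups did not overlap, and cKO 1 was the lowest library. The log2 fold change was -0.26 (SE 0.11, 95% interval -0.51 to -0.01, edgeR adjusted p = 0.159). Over the 13 other fits its adjusted p lay between 0.140 and 0.384.

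Runx3 (ENSMUSG00000070691, chr4:135120652-135177990, plus strand), the RUNX factor of CD8 cells, had only 88, 82 and 153 counts in the control and 151, 94 and 201 counts in the cKO libraries. That is 4.56, 4.21 and 5.94 CPM in control and 6.89, 4.89 and 9.27 CPM in cKO libraries. The value of cKO 2 lay among the control values, and the coefficient of variation of 31.3% in cKO was the highest of all members. The log2 fold change was 0.52 (SE 0.33, 95% interval -0.22 to 1.26, edgeR adjusted p = 0.35), an interval that holds 0 as well as a 2-fold increase. Runx3 was the only tested member with a fit above 0.

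The ratio of Runx1 to Runx3 counts was 44.8, 48.2 and 31.7 in control and 21.9, 35.5 and 18.7 in cKO libraries. The ratio of cKO 2 was above that of control 3, so the groups overlapped. The mean log2 difference was -0.75 (exact two-sided permutation test, p = 0.2, smallest possible 0.1). Zbtb7b (ENSMUSG00000028042, chr3:89377644-89394776, minus strand), the gene of the CD4-lineage factor ThPOK, is listed at 0 counts and 0 FPKM in all 6 libraries. With a floor of 3 counts, a count of 0 allows 0.116 to 0.156 CPM, for counting error only. It is 1 of 6973 genes, of 22322, at 0 in all libraries. Ccr7, a chemokine receptor of cells leaving the DP stage, was detected at 3.69 to 29.0 CPM in the same libraries. It is 1 of 14 listed late DP and mature SP genes, of which 11 were tested. Il7r, Cd40lg and Foxp3 of that list were too low to be tested, at 0.12 to 1.64, 0 to 0.36 and 0 to 0.67 CPM.

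**Figure D2:**
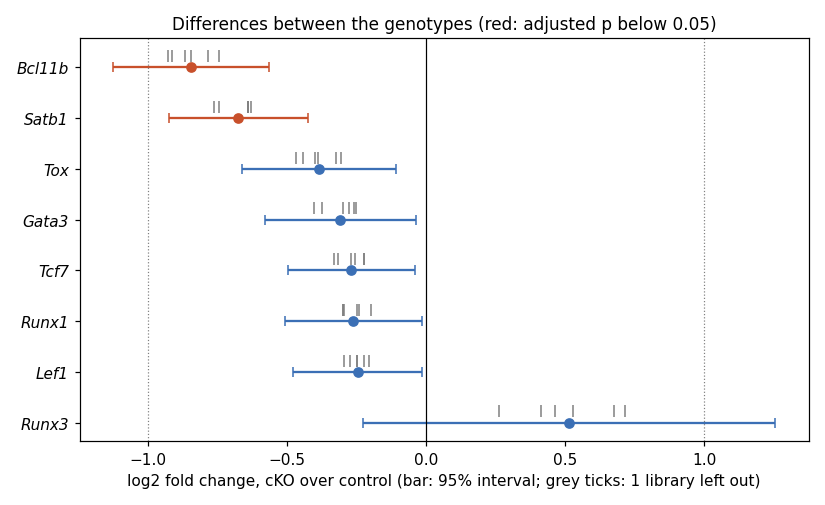
Log2 fold change, cKO over control, of the 8 tested members (horizontal axis, log2 scale) with points for the edgeR fit, bars for its 95% interval and grey ticks for the 6 fits that each leave out 1 library. Dotted lines mark a 2-fold difference. Bcl11b and Satb1 (red) passed the adjusted threshold, the ticks of every member stay on the side of 0 of its point, and the Runx3 interval from -0.22 to 1.26 is the widest.

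Set against the table, the members lay mostly on 1 side. Their fitted log2 fold change was below 0 for 7 of 8, against 50.2% of tested genes, and its median over the 8 was -0.29, against -0.0017 over 11488 tested genes and 0.0059 over the 2589 with at least 100 CPM. All 3 cKO libraries were below all 3 control libraries for 7 of 8 members, against a background of 17.3%, and above them for 0 of 8, against 15.7%. They were below for 7 of the 7 members with at least 100 CPM, against 23.3%. The members were chosen with earlier results of these data known, and the level of 100 CPM after the members' values were seen. The shares beside them are therefore a description. At an unadjusted p below 0.05, 7 of 8 members were lower, against 14.6% of tested genes. By adjusted p DESeq2 called 3 members lower (8.59% of genes), the third being Tox, and limma-voom called 2 (6.24%). No member passed the 2-fold threshold together with the adjusted p by edgeR, DESeq2 or limma-voom, against 2.76% of tested genes by edgeR in either direction, although 10.4% passed the adjusted p alone.

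**Figure D3:**
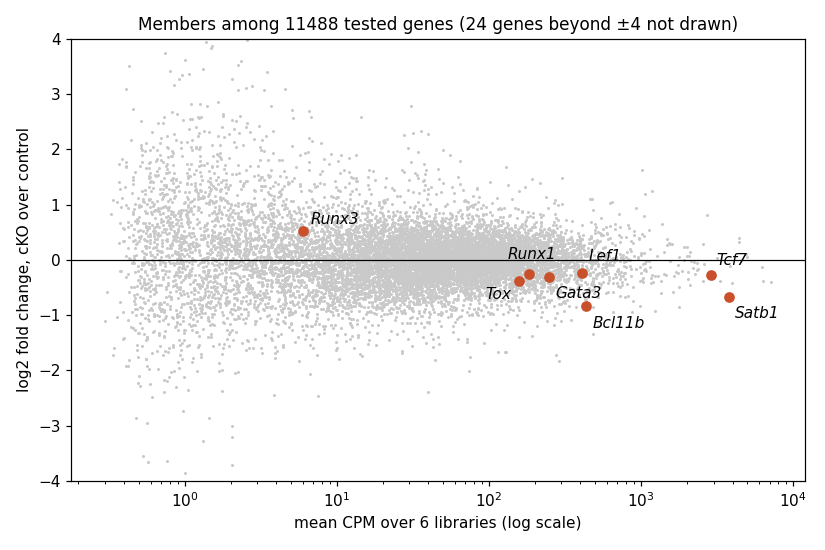
Log2 fold change, cKO over control (vertical axis), against mean CPM over 6 libraries (horizontal axis, log scale) for 11488 tested genes in grey, 24 of them beyond ±4 and not drawn, with the 8 tested members in red. Satb1 and Tcf7 lie at the far right among the most abundant genes, 7 members lie below 0, and Runx3 lies at a mean of a few CPM.

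Levels of different members were compared per transcript length, on the authors' FPKM scale. In control DP thymocytes Satb1 (1437 FPKM, range 1281 to 1535) and Tcf7 (1325 FPKM, range 1268 to 1398) stood highest, with overlapping ranges. Lef1 (142 FPKM) and Bcl11b (132 FPKM) followed and also overlapped, Tcf7 being 9.31 times Lef1. Gata3 (84.7 FPKM), Runx1 (53.9 FPKM) and Tox (44.7 FPKM) came next, each with a range apart from its neighbours, before Runx3 (1.26 FPKM) and Zbtb7b (0 FPKM). Runx1 and Tox were apart only narrowly, the lowest Runx1 value being 49.85 and the highest Tox value 49.47 FPKM. The implied length of Runx1 differed between libraries: control 3 had its highest control FPKM (58.97) but its lowest control CPM (188).

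In cKO DP thymocytes the FPKM order began with Tcf7 (1116 FPKM, range 1047 to 1217) and Satb1 (921 FPKM, range 864 to 1025), whose ranges did not overlap. Bcl11b (70.7 FPKM) was level with Gata3 (69.4 FPKM), with overlapping ranges, while Lef1 (123 FPKM) stood 1.74 times above Bcl11b. Runx1 (42.1 FPKM), Tox (34.8 FPKM), Runx3 (1.82 FPKM) and Zbtb7b (0 FPKM) kept their places. The ratio of Satb1 to Tcf7 counts, examined after these values were seen, was 1.66, 1.46 and 1.34 in control and 1.13, 1.15 and 1.07 in cKO libraries. The ratios did not overlap, and the mean log2 difference was -0.41 (exact two-sided permutation test, p = 0.1, the smallest possible).

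The transcript length implied by counts and FPKM differed between libraries by up to 37.8% for Runx1 (3136 to 4322 bases) and 14.97% for Bcl11b (4058 to 4665 bases), and by at most 3.95% for the other detected members. FPKM of Runx1 and Bcl11b therefore do not scale with their counts alone. In the annotation, 8 of the 9 members overlap a gene on the opposite strand, Bcl11b being the exception. Gata3, Lef1, Satb1 and Tcf7 also overlap genes on their own strand, which counting by strand would not separate. No source says if strand entered the counting, so reads of these partners cannot be told apart from the members' own. The partners 4930412O13Rik and 9230102O04Rik of Gata3 had counts of 0 to 1.

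**Figure D4:**
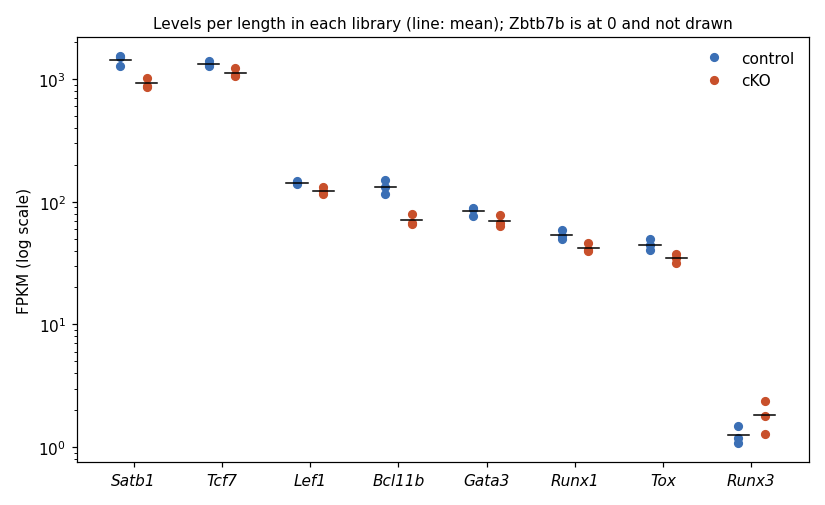
Authors' FPKM (vertical axis, log scale) of the 8 detected members in each of 3 control (blue) and 3 cKO (red) libraries, ordered by control mean, with lines at the group means. Satb1 and Tcf7 overlap in control (1437 and 1325 FPKM) and are apart in cKO with Satb1 the lower (921 and 1116 FPKM), and Bcl11b reaches the level of Gata3 in cKO.

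Over the 6 libraries, the log2 CPM values of Tcf7 and Tox moved most closely together (Pearson r = 0.98), followed by Bcl11b with Satb1 (r = 0.95) and Tcf7 with Bcl11b (r = 0.94). Gata3 followed the others least among the abundant members (r = 0.44 with Runx1 and 0.50 with Tcf7), and Runx3 ran opposite to each of the others (r = -0.32 to -0.81). These are descriptions over 6 points that share library and genotype. Among 9194 genes with a mean of at least 5 CPM, those most similar to a member included Bin1 and Tmem50a for Tcf7, Mmp14 and Aspscr1 for Lef1, Cd52 and Zmiz1 for Bcl11b, and Agpat4 for Gata3. For the others they included Dcp1b and Bicral for Runx1, Ppp1r2 for Runx3, Cryzl1 and Ptprc for Satb1, and Arpc5 for Tox. These r values lay between 0.99 for Agpat4 with Gata3 and 0.999 for Cd52 with Bcl11b. Cd52, a small surface glycoprotein of lymphocytes, differed by -1.77 on the log2 scale (edgeR adjusted p = 0.0039), and Ptprc, the phosphatase CD45, by -0.45 (adjusted p = 0.0322).

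Family relatives of the members, such as Tcf7l2 and Tox2, were mostly low. Tox4, a relative of Tox, was abundant, at 330 ± 43.2 CPM in control and 397 ± 57.7 CPM (SD, n = 3) in cKO libraries. Its values overlapped (edgeR adjusted p = 0.25). Of 12 listed, 7 were tested and none passed the edgeR test in either direction, while 2 had an unadjusted p below 0.05 and DESeq2 called 1. Tcf7l2, another TCF factor, was at 5.14 ± 0.83 CPM in control and 8.68 ± 1.88 CPM (SD, n = 3) in cKO libraries, with the groups apart (edgeR adjusted p = 0.123). Zbtb7a, a relative of ThPOK, was at 40.1 ± 5.12 CPM in control and 54.0 ± 3.43 CPM (n = 3) in cKO libraries (edgeR adjusted p = 0.0861). These 2 were picked after their values were seen.

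By edgeR's adjusted p, 5.89% of all tested genes were called lower and 4.47% higher. Among 24 tested cofactors of 25 listed, 1 was lower and 0 were higher by that measure. Their median log2 fold change was 0.02, and 6 had an unadjusted p below 0.05. The 1 gene was Ncor1, a scaffold of histone deacetylase corepressor complexes, at 307, 360.5 and 364.5 CPM in control and at 261, 224 and 203 CPM in cKO libraries. All cKO libraries were below all control libraries, with a log2 fold change of -0.58 (SE 0.13, edgeR adjusted p = 0.0207). The call was lost without control 2 (adjusted p = 0.0805), control 3 (0.0643), cKO 2 (0.0673) or cKO 3 (0.112). Cbfb, the shared partner of the RUNX factors, was at 124 ± 20.2 CPM in control and 126 ± 9.35 CPM (SD, n = 3) in cKO libraries, and Ctnnb1, which encodes β-catenin, at 164 ± 19.3 and 199.9 ± 12.8 CPM. Neither passed the test (edgeR adjusted p = 0.953 and 0.162).

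Other transcription factors of thymocytes were counted from a list of 32, of which 31 were tested. In cKO 5 were downregulated and 2 upregulated, with a median log2 fold change of -0.28. The shares over all tested genes were 5.89% called lower and 4.47% called higher, with 9.97% lower among those with at least 100 CPM. Id3, an inhibitor of E proteins induced by T cell receptor signals, was at 325, 319 and 342 CPM in control and at 162, 162 and 133 CPM in cKO libraries, or -1.11 on the log2 scale (edgeR adjusted p = 0.0035). Bcl6, a zinc-finger repressor, was at 128, 181.5 and 152 CPM in control and at 74.5, 81.2 and 51.6 CPM in cKO libraries, or -1.15 on the log2 scale (edgeR adjusted p = 0.0079). The groups of both genes were far apart, and both passed under all 13 other fits.

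Within the same list, Ikzf1, the Ikaros gene, fell with a log2 fold change of -0.40 (857 ± 14.99 to 648 ± 7.22 CPM, SD, n = 3, edgeR adjusted p = 0.0287), and Gfi1, a zinc-finger repressor, with one of -0.49 (146 ± 5.49 to 104 ± 11.97 CPM, adjusted p = 0.0342). Each passed in 1 of the 6 fits that leave out 1 library, the one without control 1 (adjusted p up to 0.126 and 0.151 in the others). Ikzf2, the Helios gene, rose with a log2 fold change of 0.84 (25.6 ± 4.85 to 45.6 ± 2.25 CPM, edgeR adjusted p = 0.0157), a call lost without control 2 (0.0642) or cKO 3 (0.0821). Myb, a factor of proliferating progenitors and DP survival, stood at 729 ± 165 CPM in control and 719 ± 26.26 CPM in cKO libraries (edgeR adjusted p = 0.955), with overlapping values, and was picked after its values were seen. Without cKO 3 the list held 2 lower and 0 higher calls.

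Genes reported elsewhere as targets of the members were counted from a list of 32. Of 27 tested, 4 were downregulated and 1 was upregulated in cKO, with a median log2 fold change of -0.39. Over all tested genes 5.89% were called lower and 4.47% higher, and 9.97% lower among those with at least 100 CPM. Rag1, a subunit of the recombinase of antigen receptor genes, was at 2540, 2400 and 1950 CPM in control and at 1114, 1539 and 1159 CPM in cKO libraries (log2 fold change -0.85, edgeR adjusted p = 0.0092). The groups did not overlap, and without cKO 3 the adjusted p was 0.0656. Cd3e, a signaling chain of the T cell receptor complex, was at 527, 628.5 and 626 CPM in control and at 392, 400.5 and 377 CPM in cKO libraries (log2 fold change -0.61, edgeR adjusted p = 0.0104), with 0.0511 without control 2 and 0.0709 without cKO 3.

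Cd3g, another chain of that complex, fell with a log2 fold change of -0.47 (825 ± 98.8 to 594 ± 56.9 CPM, SD, n = 3, edgeR adjusted p = 0.0407), and Cd8b1, the coreceptor β chain, with one of -0.58 (1945 ± 366 to 1304 ± 163 CPM, adjusted p = 0.0383). Both passed in only 1 of the 6 fits that leave out 1 library, the one without control 1, and their adjusted p in the others reached 0.172 for Cd3g and 0.161 for Cd8b1. Il2ra, the interleukin-2 receptor α chain of the DN stage, rose with a log2 fold change of 1.24 (6.26 ± 1.55 to 14.8 ± 3.06 CPM, n = 3, edgeR adjusted p = 0.0212) and lost the call without control 3 (0.0553), cKO 1 (0.0784), cKO 2 (0.0641) or cKO 3 (0.0543). Cd4 stood at 256, 292 and 251 CPM in control and at 184, 225 and 162 CPM in cKO libraries (edgeR adjusted p = 0.0515) and Cd8a at 1820 ± 299 and 1478 ± 121 CPM (adjusted p = 0.171), both picked after their values were seen. Without cKO 3, 0 genes of this list passed in either direction.

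Markers of stage and of other cells moved beside the members. Over all tested genes, 5.89% were called lower and 4.47% higher, and 50.2% had a fit below 0. Of the 14 DP genes, 5 were called lower and 0 higher (1 lower without cKO 3, 2 without control 2, 8 without control 1), and all 14 fits were below 0. The lists overlap: 3 of these 5 calls, Rag1, Cd3e and Cd8b1, are also among the 4 lower calls of the target list, and Il2ra is in both the target list and the DN and ISP list. Of 11 tested DN and ISP genes, 3 were higher and 0 lower by edgeR and by DESeq2. Their fits went both ways, 6 of 11 below 0 with a median log2 fold change of -0.0091. The summed levels of the list were 227 to 294 CPM in control and 320 to 343 CPM in cKO libraries, but without Hes1 the sums of the groups overlapped. Kit, Notch3, Mycn and Lyl1 had fits of -0.93, -0.76, -0.76 and -1.06, none past the edgeR test. The genes called were Il2ra, the Notch target Hes1 and Dtx1, another gene of the Notch pathway, and without control 3, cKO 1 or cKO 3 only 1 remained past the threshold. Hes1 was at 9.44, 5.40 and 8.65 CPM in control and at 72.7, 33.3 and 56.2 CPM in cKO libraries (log2 fold change 2.79, edgeR adjusted p = 0.0035), passed in all 13 other fits, and like the other markers named here was singled out after its values were seen. Of 11 tested late DP and mature SP genes, 1 was higher, the activation marker Cd69 (0 without control 2, control 3, cKO 1 or cKO 3), and 7 of the 11 fits were below 0, with a median log2 fold change of -0.25. Cd69 was at 201, 159 and 119 CPM in control and at 680.1, 187 and 460 CPM in cKO libraries, so that cKO 2 lay among the control values. The summed levels of this list were 1104 to 1312 CPM in control and 1047 to 1657 CPM in cKO libraries, the highest in cKO 1, where Cd69 was highest.

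Macrophage markers were higher for 4 of 8 tested, Adgre1, C1qb, C1qc and Cd68 (1 of the list without cKO 3), against 4.47% of all tested genes. Adgre1 had no count in control and 2.19 to 2.40 CPM in cKO libraries, so it passed the filter only through the cKO group. Mean levels in control and cKO were 1.35 and 8.80 CPM for C1qb, 0.96 and 8.18 for C1qc, and 1.22 and 5.02 for Cd68. With a mean of at least 5 CPM as the filter, 1 call of the list remained. All 13 listed summed to 6.99 to 25.4 CPM in control and 45.3 to 66.1 CPM in cKO libraries. Marco, Mertk and Vsig4 were at 0 in all libraries. Of the γδ T cell markers, 1 of 5 tested, Scart1, was higher, with 0 called without control 2, cKO 1 or cKO 3 (76.4 to 140 CPM summed in control, 136 to 172 CPM in cKO). Scart1 had no count in control and 0.87 to 1.15 CPM in cKO libraries, so it too passed the filter only through the cKO group. With a mean of at least 5 CPM as the filter, 0 were called. Most of the sums was Trdc, at 74.9 to 138 and 132 to 165 CPM, with overlapping values (edgeR adjusted p = 0.224). Of the B cell markers, 1 of 3 tested, Cd79b, was lower, with 0 called without control 2, cKO 1 or cKO 3 (948 to 1299 CPM summed in control, 870 to 911 CPM in cKO). Erythroid markers (28.2 to 141 CPM and 1.92 to 49.2 CPM), dendritic cell markers (1.75 to 3.96 CPM and 4.06 to 6.25 CPM), neutrophil markers (4.11 to 4.36 CPM and 2.35 to 5.84 CPM), thymic epithelial markers (11.3 to 14.0 CPM and 9.90 to 14.1 CPM) and NK and innate T cell markers (5.18 to 17.5 CPM and 8.40 to 10.4 CPM) had no call in either direction by edgeR's adjusted p, with 1 unadjusted p below 0.05 among their 13 tested genes and 1 call, among the NK and innate T cell markers, by DESeq2. The part of these cells and stages in the differences of Bcl11b, Satb1 and the other members was not tested.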

How the data were processed

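RNA of sorted DP thymocytes was amplified and sequenced on an Illumina HiSeq2500, 3 libraries per genotype. The labels name a SMARTER kit and the study's methods a Discover-sc WTA kit with TruePrep, and this difference was left as it is. The authors deposited 1 table with, per library, whole-number read counts per gene without normalization and FPKM values scaled by the authors to transcript length and library size. The deposited log2 ratio, p-value and FDR columns hold the authors' own comparison and were not used. The submitters' processing notes name fastp 0.18.0, Bowtie2 2.2.8, HISAT2, StringTie and RSEM, with no role or order. The genome build, the annotation and the counting settings were not stated, and counts may be rounded estimates.

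The labels gave genotype and replicate number. Counts were tested in R 4.3.3 with the quasi-likelihood test of edgeR 4.0.16 (filterByExpr at its defaults, 10 as minimum count and 15 as minimum total, TMM factors, genotype as the only term), which kept 11488 of 22322 genes. Benjamini-Hochberg adjustment ran over all of them. A gene was called at an adjusted p below 0.05. Scripts were tested on simulated data. Counts of replicate libraries differed with a chi-square of 19.8 to 68.3 per degree of freedom, so none was a duplicate. Control 1 stood furthest off, at 57.0 from control 2 and 68.3 from control 3. Control 2 and control 3 differed by 19.8, and the cKO libraries by 23.9 to 37.9. Libraries of 18963775 to 26252248 counts made 1 count worth 0.0388 to 0.052 CPM. Alternatives were DESeq2 1.42.0, limma-voom (limma 3.58.1), RLE factors, total counts alone, no filter, a mean of at least 5 CPM, the replicate number as a block, and leaving out each library.

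All 9 members are named with each library's value. From the family relatives, cofactors, other thymocyte transcription factors and reported target genes, up to 5 genes with the smallest adjusted p below 0.05 are named, and for each tested member the 2 genes with the highest Pearson r of log2 CPM. Some genes that meet these rules are not reported here. Marker lists covered the DP stage, the DN and ISP stages, late DP and mature SP cells, γδ T cells, NK and innate T cells, B cells, macrophages, neutrophils, erythroid and dendritic cells, and thymic epithelium. Members and lists were chosen with earlier results of these data known. Gene positions are from GENCODE M21 (GRCm38), matched by Ensembl ID for 9 of 9 members, and windows before starts from RefSeq on GRCm38.p6.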

Additional observations from a re-analysis of the deposited data

How the results depend on the processing

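Over the 13 other fits no tested member changed direction, and 98 of 104 calls of members stayed as they were. The number of members called was 0 (without cKO 3) to 4 (without control 1) when 1 library was left out, 3 with DESeq2, and 2 with limma-voom and each other scaling or filter. Over all genes, 1191 were called, against 1940 with DESeq2 and 120 (without cKO 3) to 2030 (without control 1) with 1 library left out. The cause was not tested. The Tcf7 to Lef1 difference turned from -0.02 to 0.0255 without cKO 1 and to 0.0366 without cKO 3, within a range of -0.13 to 0.0366. The median of all genes shifted by at most 0.02 (log2) under other scalings. With the replicate number as a block, 3 members and 1238 genes were called, Tcf7 being the added member. Deviations of same-numbered libraries correlated at 0.07, 0.10 and 0.0091, and those of the other pairs at -0.10 to 0.01. Control 3 was nearer to cKO 1 (0.01) than to cKO 3. Whether same-numbered libraries share more than a number is not stated and was not tested. No ratio of Runx3 to Zbtb7b could be formed because Zbtb7b had no count. The depth limits Runx3, with 82 to 201 counts, most among the detected members.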
